A study of Aedes aegypti with 12 samples.

Results

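The mutation of *AaegGr34* was compared between 2 tissues of *Aedes aegypti*, the mosquito that transmits yellow fever and dengue. The question was which genes differed between mutant and wild type to a different extent, or in opposite directions, in the brain and in the fat body. Other genetic differences between the mutant and wild-type lines, if any, cannot be told apart from the mutation here. Every one of the 12 RNA-seq libraries entered the comparison. For each gene, the mutant over wild-type log2 fold change in brain was subtracted from that in fat body, so a positive difference means a higher effect in fat body. Of 12859 genes with enough counts to be tested, 60 differed between the tissues at an adjusted p under 0.05 (edgeR quasi-likelihood test, Benjamini-Hochberg adjustment), which is 0.467% of those tested, and these are the genes described here. The difference was higher in fat body for 41 of them (0.319% of tested genes) and lower for 19 (0.148%). The count depended on the method: DESeq2 called 270 (152 higher and 118 lower), and edgeR scaled by library size alone called 0, with 1038 genes at an unadjusted p under 0.05. That scaling moved the median difference over all tested genes from 0.04 to -0.09, and DESeq2's size factors used in edgeR moved it to -0.04 with 48 genes called, all among the 60. Of the 60, 9 stayed called whichever single library was left out, and the other 51 lost the call in at least 1 of those 12 fits.

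The groups were wild-type (Liverpool strain) fat body, *AaegGr34* mutant fat body, wild-type brain and *AaegGr34* mutant brain, with 3 libraries in each. The labels give neither the nature of the mutation nor the sex, age or feeding state of the mosquitoes at dissection, and do not say how many animals went into a library. Both genotypes were reared with constant access to sucrose solution. The series design states biological replicates, without saying whether brain and fat body of a number came from the same animals.

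The fat body is the insect counterpart of liver and adipose tissue: it holds the fat and glycogen reserves and makes most proteins of blood and egg yolk. Gustatory receptors are membrane proteins through which insects taste food, and some of them also act in internal organs. The deposited annotation relates Gr34 to the sugar receptor Gr43a, which in *Drosophila* detects fructose on taste neurons and inside the brain. Brain and fat body exchange signals through hormones and nutrients in the insect's blood.

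*Gr34* itself (LOC5570009, chromosome 3, 212688192 to 212705120, minus strand) had few reads. Brain libraries had 24, 22 and 7 counts (wild type) and 6, 11 and 28 counts (mutant). In fat body the counts were 2, 4 and 16 in wild type and 2, 11 and 2 in the mutant. Genotypes overlapped in both tissues, so transcript level gave no check of the labels, and where the lesion lies relative to the counted exons is not stated in the labels. Its difference between tissues was -0.53 (SE 1.07, adjusted p = 1, edgeR quasi-likelihood test).

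Total counts ran from 18.5 M to 31.3 M reads per library. Markers of photoreceptors made up 20.6 to 27.3% of all counts in brain libraries and 0.0656 to 0.144% in fat body, and fat body markers 0.126 to 0.169% in brain and 0.262 to 0.463% in fat body. Much of the RNA in the brain libraries thus came from genes typical of eyes. In brain, the photoreceptor share was 22.8 to 27.3% in wild type and 20.6 to 22.5% in the mutant, which did not overlap, with 0 and 2 of the 73 markers at 0 in these groups. In fat body, gut markers took 0.248 to 0.270% in wild type but 0.177, 0.818 and 1.25% in the mutant libraries, with 47 of 216 markers at 0 in both groups. Ovary and germline markers took 0.105, 0.417 and 0.604% in wild-type and 0.149, 0.676 and 0.233% in mutant fat body. Cytosolic ribosomal protein genes took the largest share in replicate 1 of both fat body groups, at 33.7 and 37.1%, against 22.2 to 28.4% in the other fat body libraries. Fat body libraries of a genotype also varied more among themselves than brain libraries: the biological coefficient of variation was 0.406 in fat body and 0.21 in brain. In such bulk samples, fewer cells of a type and less RNA per cell cannot be told apart. None of the 60 genes belongs to a marker list.

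Most of the 60 genes had estimates on opposite sides of 0 in the tissues, which a large difference itself favours. Over the 10642 genes tested in both tissues, 56.6% had estimates of the same sign when the tissues were fitted apart. By the estimates of the fit of all libraries, 33 were lower in mutant brain and higher in mutant fat body, 13 were higher in brain and lower in fat body, 9 were higher in both and 5 lower in both. Differences ranged from 1.45 to 13.36 in size on the log2 scale, with a median size of 3.72, while the median size over all tested genes was 0.32. Opposite effects passed the test in both tissues for no gene: 0 of the 60 genes, and 0 of all genes tested, had an adjusted p under 0.05 in each tissue with opposite signs, whether the tissues were fitted apart or together. At an unadjusted p under 0.05 in each tissue apart, 21 of the 60 had opposite signs. The genotypes did not overlap in 48 of the 60 genes in brain and in 48 in fat body. Over all tested genes the shares were 28.4% in brain and 12.3% in fat body. Since these libraries also chose the genes, those counts describe them and test nothing.

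**Figure D1:**
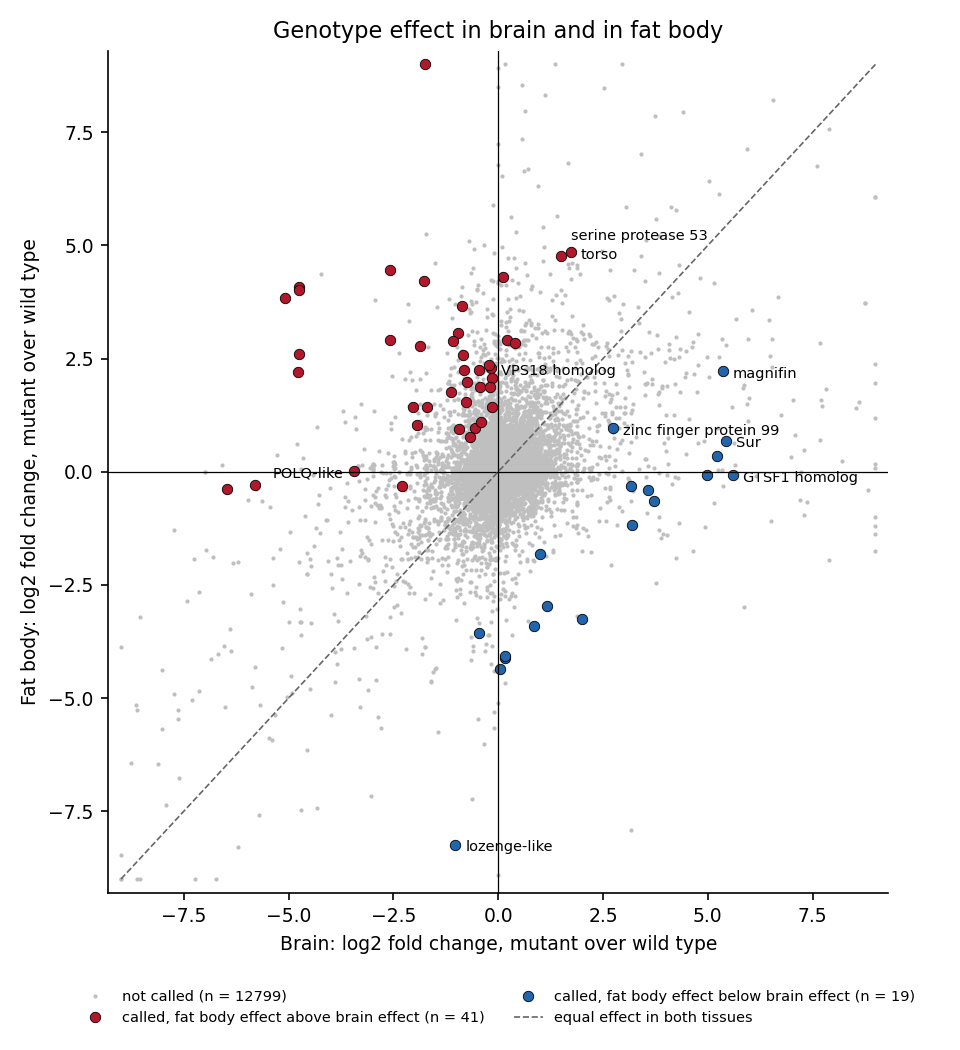
Log2 fold change of mutant over wild type in brain (horizontal axis) and fat body (vertical axis), both from the fit of all 12 libraries; each point is a gene, values beyond 9 in size are drawn at 9, and the dashed line marks an equal effect. The 41 genes with a positive difference (red) lie mostly in the upper left, where brain is lower and fat body higher in the mutant, and the 19 with a negative difference (blue) mostly in the lower right.

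The genes with a positive difference were mostly higher in brain than in fat body to begin with. In wild type, 35 of the 41 had a higher mean in brain than in fat body, against 2 of the 19 with a negative difference and 49.0% of all tested genes. The same wild-type libraries enter this count and the difference. A high wild-type brain or low wild-type fat body value raises the difference, so the count describes these genes and tests nothing. The wild-type gap between the tissues, taken on log2(CPM + 0.5), was narrower in the mutant for 24 of the 41 genes with a positive difference (58.5%) and for 5 of the 19 with a negative one (26.3%). Over all tested genes the shares were 52.1% and 57.4%.

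Each gene was then sorted by whether the genotypes also differed in brain or fat body alone. In brain, 1050 of 11848 genes (8.86%) were called, 545 higher and 505 lower in the mutant, and in fat body 27 of 11558 (0.234%), 16 higher and 11 lower, at an adjusted p under 0.05 in fits of 6 libraries. These counts depended on the fit: with all 12 libraries sharing 1 estimate of spread, 343 genes were called in brain and 362 in fat body. In the fits of 6, fat body had 0 calls without wild-type replicate 2, mutant replicate 1 or mutant replicate 3, where 644, 987 and 664 genes had an unadjusted p under 0.05 by edgeR. The median standard error was 0.147 in brain and 0.371 in fat body, so that fat body calls needed larger changes. Among the 60 genes, 40 had a mean of at least 1 CPM (a gene's counts scaled to a fixed library size) in a genotype of each tissue. Of these 40, 19 were called in brain and not in fat body, 3 in fat body and not in brain, 2 in both with the same sign, 16 in neither and 0 in both with opposite signs. With each tissue's effect taken from the fit of all 12 libraries, the same 40 fell into 10 called in brain only, 25 in fat body only, 4 in both with the same sign, 1 in neither and 0 with opposite signs. Of the other 20 genes, 6 reached 1 CPM in brain only, 9 in fat body only, and 5 in neither. A call in one tissue alone does not show a lack of effect in the other: of the 19 genes called only in brain, 7 had a fat body interval that held 0, and 10 had a fat body estimate of opposite sign with a 95% interval that did not reach 0.

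Among the 3 genes called in fat body and not in brain, a *VPS18* homolog (LOC5564402, chromosome 1, 104599428 to 104607788) had the lowest p, though not the largest change. Vps18 is a core subunit of the tethering complexes that bring vesicles to endosomes and lysosomes. In fat body its levels were 23, 21.3 and 24.6 CPM in wild type and 106, 128 and 101 CPM in the mutant. In brain they were 31.3, 31.2 and 43.4 CPM in wild type and 34.5, 27.9 and 31.0 CPM in the mutant. Every mutant fat body library was thus above every other library of the series, and the genotypes overlapped in brain. It rose 4.74-fold in fat body (log2 fold change 2.25, SE 0.25, adjusted p = 0.0333, edgeR quasi-likelihood test), and the brain estimate was -0.17 with a 95% interval from -0.54 to 0.21. The difference between tissues was 2.46 (SE 0.26, adjusted p = 0.00642, edgeR quasi-likelihood test).

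The other genes called in fat body and not in brain fell there, and both are uncharacterized. LOC110681507 (chromosome 1, 208931034 to 208933441) had 4.84, 10.0 and 13.3 CPM in wild-type fat body and 0.495, 0.514 and 0.605 CPM in mutant fat body. Its brain levels were 6.02, 5.64 and 4.35 CPM in wild type and 6.73, 5.77 and 5.46 CPM in the mutant. All mutant fat body libraries stood below all wild-type ones, while the brain genotypes overlapped. It fell in fat body by 4.15 on the log2 scale (SE 0.48, adjusted p = 0.039, edgeR quasi-likelihood test), and the difference between tissues was -4.28 (SE 0.50, adjusted p = 0.00863). LOC110681508, its near neighbour, fell by 4.09 (SE 0.50, adjusted p = 0.039) with a difference of -4.22 (SE 0.52, adjusted p = 0.00863). A further uncharacterized gene, LOC5579261 (chromosome 1, 161535137 to 161776723), was abundant in brain, with 205, 210 and 214 CPM in wild type and 263, 223 and 244 CPM in the mutant. In fat body it had 0.933, 0.477 and 1.07 CPM in wild type and 6.29, 7.23 and 5.14 CPM in the mutant, without overlap. Its difference was 2.69 (SE 0.33, adjusted p = 0.00863), although it passed the test in neither tissue alone (adjusted p = 0.179 in brain and 0.0672 in fat body). It overlaps an annotated gene on the other strand.

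**Figure D2:**
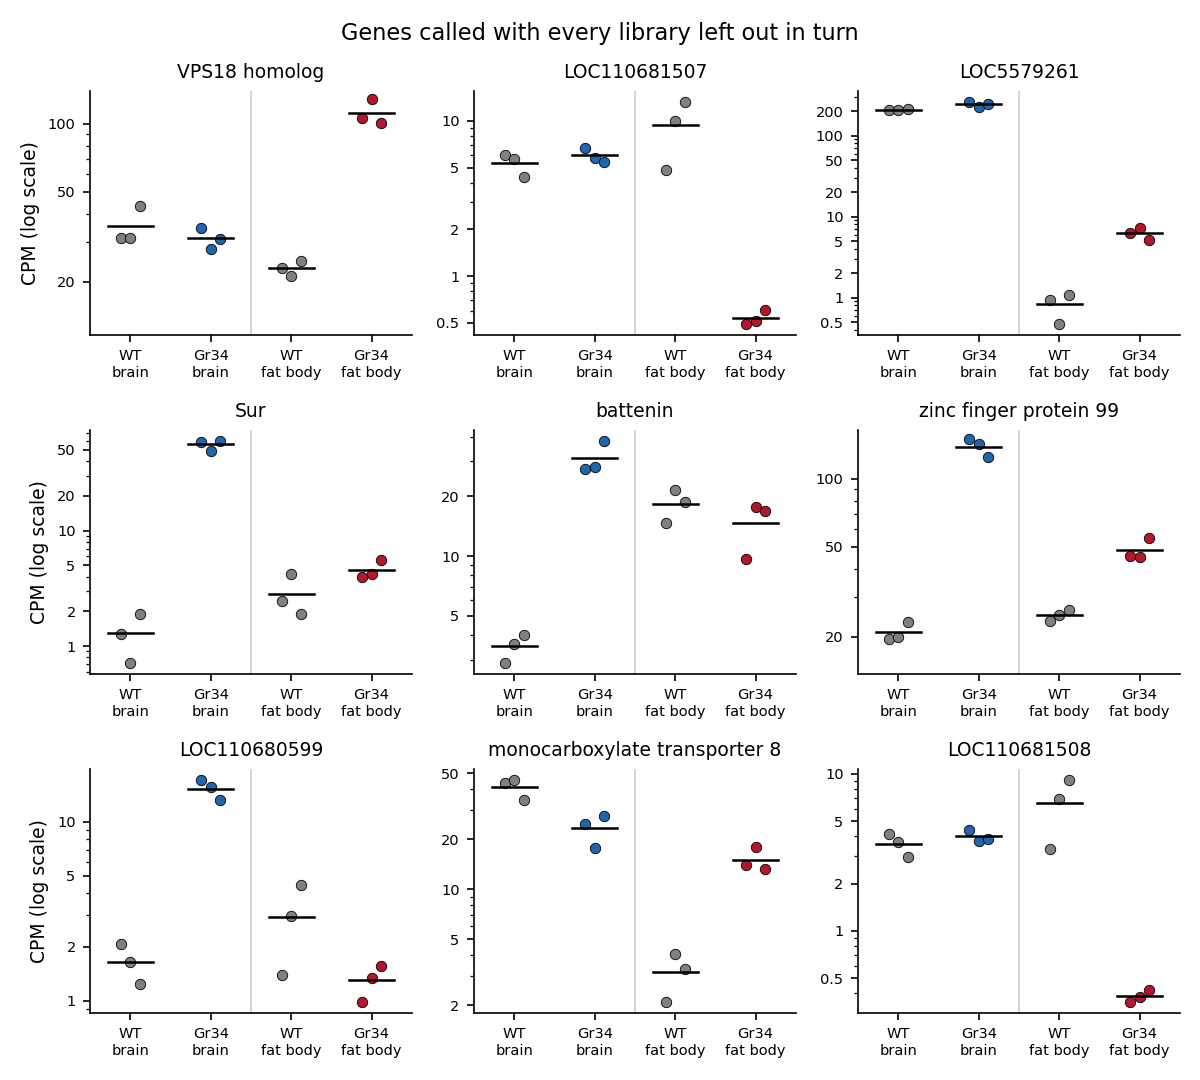
CPM on a log axis in each of the 12 libraries for the 9 genes that stayed called when any single library was left out; points are libraries, bars are group means, grey is wild type, blue mutant brain and red mutant fat body. For VPS18 homolog the mutant fat body libraries sit at 101 to 128 CPM, and for Sur the mutant brain libraries at 49.4 to 60.3 CPM, apart from all others.

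Rises in mutant brain that fat body did not match led the genes with a negative difference. *Sur* (LOC5577471, chromosome 2, 312907331 to 313134735) encodes a sulfonylurea receptor, which in mammals is the regulatory subunit of ATP-sensitive potassium channels. It went from 1.28, 0.72 and 1.91 CPM in wild-type brain to 58.6, 49.4 and 60.3 CPM in mutant brain. Its fat body levels were 2.45, 4.2 and 1.89 CPM in wild type and 3.96, 4.25 and 5.56 CPM in the mutant. The brain genotypes were far apart and the fat body genotypes overlapped. The log2 fold change was 5.45 (SE 0.31) in brain and 0.66 (SE 0.39) in fat body. The difference was -4.74 (SE 0.51, adjusted p = 0.00642, edgeR quasi-likelihood test).

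*Battenin* (LOC5572584, chromosome 1, 207343708 to 207394386), the homolog of the lysosomal membrane protein CLN3 that is mutated in human juvenile Batten disease, rose in brain from 2.9, 3.6 and 4.02 CPM to 27.6, 28.1 and 38.2 CPM. In fat body the levels were 14.6, 21.6 and 18.7 CPM in wild type and 9.62, 17.6 and 16.9 CPM in the mutant. Wild-type fat body was thus well above wild-type brain, and mutant brain above both fat body groups. The difference was -3.48 (SE 0.38, adjusted p = 0.00642, edgeR quasi-likelihood test). Zinc finger protein 99 (LOC5571247, chromosome 3, 371446107 to 371496958), a gene of the large family of zinc finger DNA-binding proteins, rose in brain from 19.5, 20 and 23.3 CPM to 149, 142 and 125 CPM. Its fat body values were 23.6, 25.1 and 26.2 CPM in wild type and 45.7, 44.9 and 54.8 CPM in the mutant. Here the genotypes did not overlap in either tissue and mutants were higher in both. The log2 fold change in brain, 2.75 (SE 0.12), exceeded that in fat body, 0.92 (SE 0.21). The difference was -1.77 (SE 0.22, adjusted p = 0.00863, edgeR quasi-likelihood test).

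Magnifin (LOC5568614, chromosome 2, 399076057 to 399083147), a probable phospholipase A1 named after a hornet venom enzyme, followed the same form at a lower level. It rose in brain from 0.427, 0.28 and 0.43 to 13.9, 19.5 and 13.8 CPM, and in fat body had 1.17, 1.19 and 0.71 CPM in wild type and 3.25, 6.23 and 4.66 CPM in the mutant. The difference was -3.14 (SE 0.47, adjusted p = 0.0228, edgeR quasi-likelihood test). A homolog of gametocyte-specific factor 1 (LOC5571152, chromosome 2, 241343619 to 241365806), which acts in transposon silencing by small RNAs in fly and mouse germ cells, was almost undetected in wild-type brain, with 0.0611, 0.24 and 0 CPM, and had 3.86, 5.13 and 6.52 CPM in mutant brain. In fat body it had 9.04, 45.3 and 42.7 CPM in wild type and 20.5, 47.2 and 24.1 CPM in the mutant. The wild-type fat body library with the lowest value is also the one with the lowest share of ovary and germline markers, 0.105%; in brain, that share was 0.0416 to 0.0448% in wild type and 0.0388 to 0.0428% in the mutant, and its part in the result was not tested. The difference was -5.67 (SE 1.04, adjusted p = 0.0431). Uncharacterized LOC110680599, whose chromosome is not assigned, rose in brain from 2.08, 1.64 and 1.24 CPM to 17.2, 15.6 and 13.2 CPM, with 1.4, 2.96 and 4.42 CPM in wild-type and 0.99, 1.34 and 1.57 CPM in mutant fat body. Its difference was -4.37 (SE 0.55, adjusted p = 0.00899).

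The larger class of brain calls went the other way: 12 of the 19 fell in mutant brain, 8 of them with a fat body estimate above 0 and 4 with one below it. Monocarboxylate transporter 8 (LOC5575506, chromosome 2, 395877819 to 396041775), whose human namesake carries thyroid hormone, fell in brain from 43.4, 45.8 and 34.7 CPM to 24.6, 17.8 and 27.5 CPM. Its fat body levels were 2.1, 4.05 and 3.32 CPM in wild type and 14, 18 and 13.2 CPM in the mutant. No library of one genotype reached the range of the other in either tissue, in opposite directions. By edgeR's quasi-likelihood test, the log2 fold changes were -0.81 (SE 0.17, adjusted p = 0.0316) in brain and 2.23 (SE 0.33, adjusted p = 0.0617) in fat body. The difference was 3.07 (SE 0.37, adjusted p = 0.00863, same test).

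Sodium/potassium/calcium exchanger 4 (LOC5565499, chromosome 3, 274601915 to 274615141), of a family that pumps calcium out of cells, fell in brain from 109, 91.8 and 107 CPM to 26.4, 28.0 and 25.2 CPM. In fat body it had 13.4, 31.2 and 24.7 CPM in wild type and 44.0, 31.5 and 65.8 CPM in the mutant. The lowest mutant fat body library only just exceeded the highest wild-type one. The difference was 2.97 (SE 0.44, adjusted p = 0.0228, edgeR quasi-likelihood test). The phosphatase rdgC (LOC5577768, chromosome 3, 330568216 to 330797249), which in *Drosophila* dephosphorylates rhodopsin, fell from 50.0, 59.0 and 46.5 CPM to 28.9, 29.5 and 32.6 CPM in brain. Fat body libraries were near the limit of detection, with 0.408, 0.525 and 0.237 CPM in wild type and 0.849, 1.47 and 0.967 CPM in the mutant. The difference was 2.31 (SE 0.38, adjusted p = 0.0325). Its fall in brain accompanied the lower photoreceptor share of mutant brain libraries, 20.6 to 22.5% against 22.8 to 27.3%, whose part in the result was not tested. Among the photoreceptor markers tested in brain, 4 of 65 were called higher and 4 lower, with a median of -0.07, and of 48 opsin and phototransduction genes 3 were called in each direction, beside 4.6% called higher and 4.26% lower of all genes tested in brain. Bride of sevenless (LOC5568657), a *Drosophila* photoreceptor ligand that was chosen here after its values were seen, likewise fell in brain, from 133, 128 and 140 CPM to 62.1, 85.7 and 60.7 CPM, and its difference was 1.89 (SE 0.34, adjusted p = 0.0405).

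The helicase POLQ-like gene (LOC5575094, chromosome 3, 368769986 to 368814211), a relative of a human repair helicase, fell in brain from 13.9, 13.7 and 6.07 CPM to 0.673, 1.2 and 1.19 CPM. Its fat body levels were 13.4, 21.0 and 21.8 CPM in wild type and 13.2, 29.1 and 14.3 CPM in the mutant, which overlapped, and the fat body estimate was -0.01 (SE 0.38). The difference was 3.47 (SE 0.59, adjusted p = 0.0352, edgeR quasi-likelihood test). Flap endonuclease GEN (LOC5577344, chromosome 3, 184273834 to 184279091), which cuts branched DNA during recombination, fell from 10.5, 10.2 and 9.95 CPM to 6.01, 7.22 and 5.83 CPM in brain. In fat body it had 3.5, 3.34 and 3.87 CPM in wild type and 5.94, 6.23 and 6.05 CPM in the mutant. Neither tissue showed overlap between genotypes. The difference, 1.45 (SE 0.25, adjusted p = 0.0385), was the smallest among the 60 genes.

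Of the remaining annotated genes called in brain alone, all chosen after their values were seen, the mRNA-capping enzyme (LOC5575290) fell from 72.6, 74.1 and 69.1 CPM to 15.1, 15.6 and 12.9 CPM in brain. It stayed between 17.3 and 35.1 CPM over all fat body libraries. The capping enzyme adds the cap to the 5′ end of new messenger RNA. An isoaspartyl peptidase/L-asparaginase (LOC5580113) is an enzyme that acts on asparagine and on damaged peptides. In brain it fell by 2.02 on the log2 scale (SE 0.19, adjusted p = 0.00177, edgeR quasi-likelihood test), and its difference was 3.46 (SE 0.61). Protein stum (LOC5577412) is needed for mechanical sensing in *Drosophila* neurons, and zig-8 (LOC5567664) is an immunoglobulin-domain protein known from *Caenorhabditis elegans*. In brain they fell by 1.11 (SE 0.24, adjusted p = 0.0322) and 1.07 (SE 0.26, adjusted p = 0.0481) on the log2 scale by the same test. Their fat body estimates were 1.73 (SE 0.46) and 2.87 (SE 0.67), with differences of 2.88 and 3.97.

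Torso and serine protease 53 rose in both tissues, more in fat body. Torso (LOC5574477, chromosome 2, 214566733 to 214765147) is a receptor tyrosine kinase that in *Drosophila* patterns the ends of the embryo and receives the brain hormone that triggers ecdysone release. It went from 16.1, 40.4 and 45.1 CPM to 895, 790 and 1240 CPM in fat body, and from 11.5, 12.3 and 13.0 CPM to 39.8, 52.0 and 29.9 CPM in brain. No library overlapped between genotypes. The log2 fold changes were 4.81 (SE 0.51) in fat body and 1.75 (SE 0.21) in brain. The difference was 3.12 (SE 0.50, adjusted p = 0.0296, edgeR quasi-likelihood test). Its annotated span overlaps one gene on the same strand and another on the opposite strand, so some of these counts may be theirs. Serine protease 53 (LOC5572144, chromosome 3, 251327584 to 251332322) rose from 1.28, 0.477 and 0.513 CPM to 13.9, 18.6 and 27.9 CPM in fat body and from 6.9, 4.92 and 5.88 CPM to 17.0, 16.7 and 16.3 CPM in brain. It was higher in brain than in fat body in wild type, while in the mutant the fat body libraries lay on both sides of the brain range. Its difference was 3.26 (SE 0.50, adjusted p = 0.0255). The highest values lay in mutant fat body replicates 2 and 3, which also had gut marker shares of 0.818 and 1.25%, and the part of these in the result was not tested.

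These 2 are among 17 genes that were called in both tissues fitted apart, all 17 with the same sign, and the rest of the 17 were not called for the difference. Of the 861 genes called in brain and tested in fat body, 72.9% had the same sign there, against 56.6% of the 10642 genes tested in both. Of the 1050 brain calls, 26 were called for the difference and 331 had an unadjusted p under 0.05; of the 27 fat body calls, 5 and 16 did.

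Among the 16 genes called for the difference and in neither tissue alone, 13 had a positive difference. Protein sax-3 (LOC5565802, chromosome 3, 324313203 to 325121808), the *Caenorhabditis elegans* name of the Robo receptor that steers growing axons, had 0.992, 1.34 and 1.34 CPM in wild-type and 6.29, 9.86 and 5.8 CPM in mutant fat body. In brain it had 3.42, 5.44 and 7.75 CPM in wild type and 3.59, 1.96 and 3.62 CPM in the mutant, which overlapped. The difference was 3.43 (SE 0.53, adjusted p = 0.0255, edgeR quasi-likelihood test), and genes on the other strand overlap its span. The transmembrane and TPR repeat-containing protein CG4341 (LOC5568626, chromosome 2, 398065675 to 398223172), of a family that in humans attaches mannose to cadherins, had 0.642, 0.811 and 0.553 CPM in wild-type and 1.91, 1.95 and 1.57 CPM in mutant fat body. It was abundant in brain, at 91.4, 85.5 and 90.5 CPM in wild type and 77.9, 75.4 and 88.9 CPM in the mutant. The difference was 1.58 (SE 0.25, adjusted p = 0.0284).

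Another member of that family went the other way. Transmembrane and TPR repeat-containing protein 1 (LOC5565213, chromosome 3, 248309414 to 249099861) rose in brain from 38.4, 30.8 and 36.8 CPM to 83.9, 53.6 and 75.3 CPM. Fat body libraries had 0.992, 0.62 and 1.14 CPM in wild type and 0.283, 0.171 and 0.363 CPM in the mutant. The difference was -2.82 (SE 0.44, adjusted p = 0.0255, edgeR quasi-likelihood test), and genes on the other strand overlap it. DNTTIP1 (LOC5566278, chromosome 2, 52111383 to 52151957), in humans a subunit of a histone deacetylase complex, was steady in brain, at 7.51, 7.44 and 6.03 CPM in wild type and 7.85, 7.3 and 7.57 CPM in the mutant. Fat body had 0.0583, 0 and 0 CPM in wild type and 0.354, 0.377 and 0.544 CPM in the mutant, a difference of 4.2 (SE 0.74, adjusted p = 0.0385) that rests on a handful of reads.

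The *lozenge* genes encode RUNX transcription factors, which in *Drosophila* act in blood cell and eye development. Lozenge-like (LOC110681435, chromosome not assigned) had 1.17, 10.7 and 7.93 CPM in wild-type fat body and 0, 0.0342 and 0 CPM in the mutant. Its brain levels were 1.04, 1.04 and 0.813 CPM in wild type and 0.359, 0.555 and 0.505 CPM in the mutant. Protein lozenge (LOC5568687, chromosome 1), chosen after its values were seen, had 3.73, 26.7 and 22.5 CPM in wild-type fat body and 0.637, 0.925 and 0.967 CPM in the mutant. In brain, lozenge ran from 5.21 to 6.32 CPM in both genotypes together. Wild-type fat body replicate 1 was several-fold below its 2 fellow libraries for both genes, and it also had the lowest ovary and germline marker share. The differences were -7.22 (SE 1.27, adjusted p = 0.0385) for lozenge-like and -4.40 (SE 0.77, adjusted p = 0.0385) for lozenge by edgeR's quasi-likelihood test. Counts of both were not whole numbers, so reads of one may have been shared with the other.

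**Figure D3:**
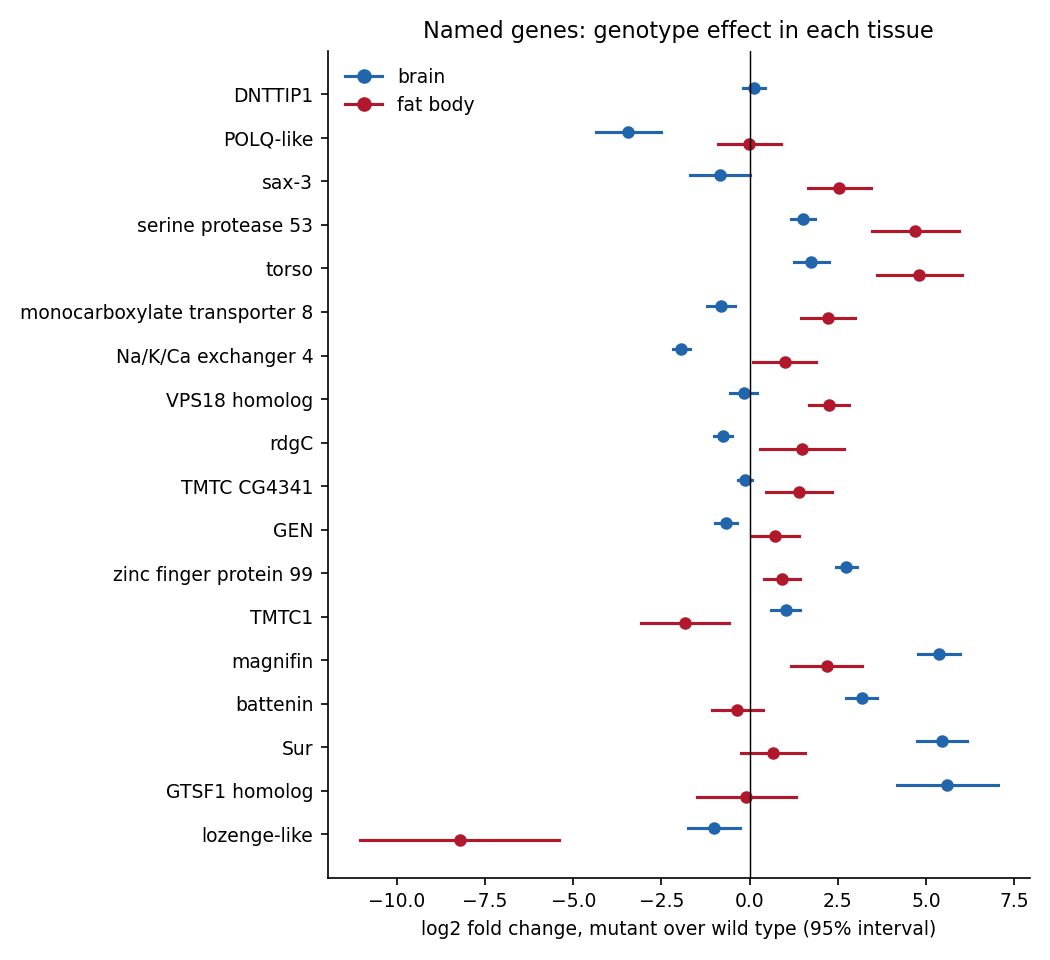
Log2 fold change of mutant over wild type with its 95% interval for the 18 annotated genes chosen by the naming rule, in brain (blue) and fat body (red), each tissue fitted apart on 3 against 3 libraries and genes ordered by the difference; DNTTIP1 had too few fat body counts for a value there. Brain intervals are mostly narrower than fat body intervals, and those of monocarboxylate transporter 8 lie on opposite sides of 0.

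A cluster of 4 of the genes lay within 45.3 kb of chromosome 1, from 208931034 to 208976347. LOC110681507, LOC110681509, LOC110681508 and LOC5580283 are all uncharacterized, and each had a fat body estimate far below 0 and a brain estimate above it. Besides the 2 described above, LOC110681509 had 2.1, 4.15 and 5.64 CPM in wild-type fat body and 0.354, 0.342 and 0.423 CPM in the mutant (adjusted p = 0.0617 in fat body), with a difference of -4.25 (SE 0.56, adjusted p = 0.0122, edgeR quasi-likelihood test). LOC5580283 rose in brain, from 3.42, 2.72 and 2.01 CPM to 7.31, 6.02 and 5.05 CPM. In fat body LOC5580283 had 2.16, 4.96 and 7.26 CPM in wild type and 0.495, 0.719 and 0.605 CPM in the mutant, and its difference was -4.12 (SE 0.60, adjusted p = 0.0207). With all fat body libraries its estimate there, -2.99, did not pass the test (adjusted p = 0.0996, edgeR quasi-likelihood test). With all libraries and with each library left out in turn, it was the only gene called for the difference and in both tissues with opposite signs, and that only when wild-type fat body replicate 1 was left out (brain 1.18, adjusted p = 0.029; fat body -3.30, adjusted p = 0.0408). Across the libraries the ratio of LOC110681507 to LOC110681508 hardly moved, with an SD of 0.069 on the log2 scale, against 0.392 for LOC110681507 and LOC110681509 and 0.25 for LOC110681509 and LOC5580283. None of the 4 had whole-number counts in every library, so some reads may be shared among them, which was not tested.

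Their neighbours varied. LOC5575726, which starts at 209012128, after the cluster, also had a negative difference, -1.58 (adjusted p = 0.0668, edgeR quasi-likelihood test). Its estimates were 2.08 in brain and 0.46 in fat body. LOC5580285, which starts before the cluster, had estimates of -1.25 in fat body and -2.34 in brain. The pair of mitochondrial ribosomal protein L43 genes, of which LOC110681506 starts just before the cluster and LOC5580284 lies inside it, with near-equal means of 24.16 and 24.14 CPM in wild-type fat body, had estimates of -1.55 in fat body and -1.66 in brain. LOC5580288, which ends 58.2 kb before the cluster, had 122 to 240 counts in fat body and 143 to 195 in brain of the wild type, and no counts in any mutant library of either tissue. With 3 counts over the group as the floor, LOC5580288 was at least 178-fold lower in fat body and at least 146-fold lower in brain. Matrix metalloproteinase-2 (LOC5580306, 208335970 to 208365457), an enzyme that cuts extracellular matrix, and battenin lie before the cluster on the same chromosome, and the metalloproteinase is within 1 Mb of both. It had 0.0916, 0.32 and 0.191 CPM in wild-type and 2.15, 2.9 and 2.84 CPM in mutant brain and a difference of -4.34 (SE 0.59, adjusted p = 0.0134).

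**Figure D4:**
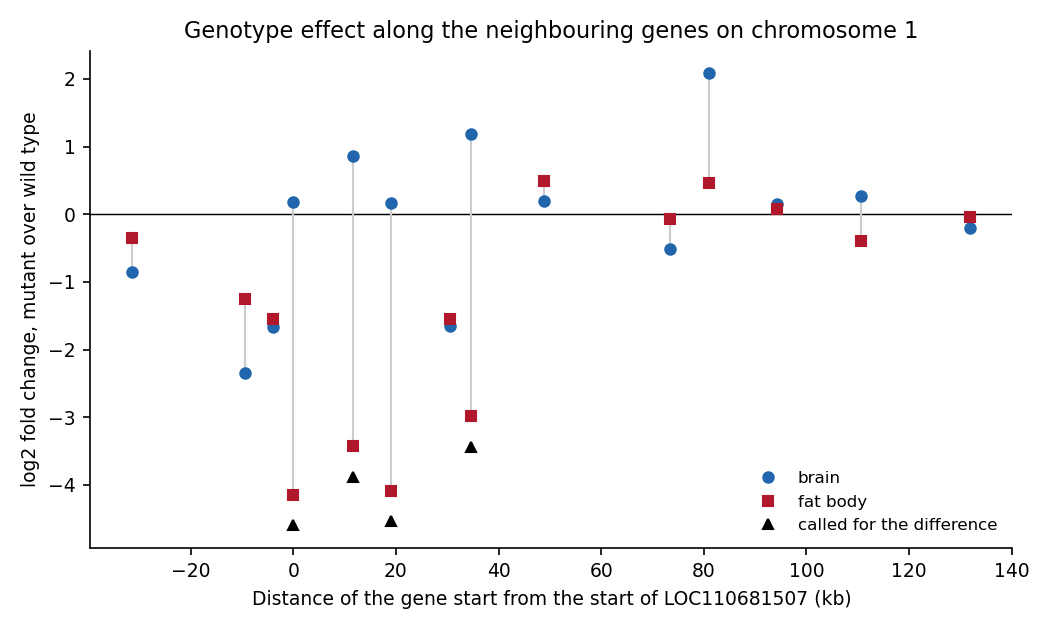
Log2 fold change of mutant over wild type in brain (blue circles) and fat body (red squares) for genes near LOC110681507, by the distance of their start in kb; grey lines join the tissues and triangles mark the 4 genes called for the difference. Only genes fitted in both tissues are drawn, without LOC5580288, which had no counts in the mutant. The 4 genes lie near or above 0 in brain and at about -3 to -4 in fat body, and the L43 pair, 1 copy just before the cluster and 1 inside it, is lower in both.

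Other members also came in groups within 1 Mb. On chromosome 2, torso, protein SCAI (LOC5574473) and UDP-glucuronosyltransferase 2B15 (LOC5576971), an enzyme of detoxification, had positive differences of 3.12, 4.52 and 2.31, with SCAI within 1 Mb of each of the others. *Sur* had LOC110675192 beside it, which rose in brain from 0.0611, 0.16 and 0.0478 CPM to 3.18, 2.95 and 2.8 CPM. LOC5572406 and LOC110677010 on chromosome 2, and LOC110677736 on chromosome 1, gave the same counts as each other in 6 to 8 of the 12 libraries for each pair. The equal counts were 8 or lower and include the zeros of mutant brain. Mutant fat body counts were equal in no pair. They were 26, 137 and 30 for LOC5572406, 21, 114 and 31 for LOC110677010, and 19, 100 and 27 for LOC110677736. All 3 genes were at 0 in every mutant brain library and under 0.3 CPM in wild-type brain, and had 1.34 to 4.69 CPM in mutant fat body. They may be copies that share reads, and their differences, 8.84, 8.78 and 8.93, depend on the value given to a count of 0.

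The largest difference of all belonged to LOC110677650 (chromosome 3), an uncharacterized gene at 6.22, 31.8 and 14.1 CPM in mutant fat body and without any count in wild-type fat body. Against a floor of 3 counts over the group it was at least 368-fold higher in mutant fat body, while it stayed at or under 0.244 CPM in every brain library. LOC5578332 and LOC5578744 were the reverse in brain. LOC5578332 fell from 5.13, 4.72 and 3.44 CPM to 0.0448, 0.0854 and 0.0918 CPM, and LOC5578744 from 4.34, 5.92 and 6.84 CPM to 0, 0.171 and 0 CPM. In fat body both genes overlapped between genotypes, at 2.33 to 7.03 CPM and 1.09 to 3.39 CPM, and their differences were 5.51 (SE 0.75, adjusted p = 0.0134) and 6.09 (SE 1.01, adjusted p = 0.0325) by edgeR's quasi-likelihood test.

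WD repeat-containing protein 35 (LOC5571111), a part of the machinery that moves cargo in cilia, chosen after its values were seen, had 4.78, 2.29 and 2.96 CPM in wild-type and 17.5, 27.6 and 26.7 CPM in mutant fat body. Its brain libraries ran from 3.78 to 7.6 CPM with overlap, and its fat body estimate of 2.80 (SE 0.39) missed the threshold at an adjusted p of 0.0513. Glucose dehydrogenase (LOC5563975) and proton-associated sugar transporter A (LOC5578678), which handle sugars, were scarce in both tissues. Glucose dehydrogenase had 0.292, 0.191 and 0.237 CPM in wild-type and 0.99, 2.05 and 1.33 CPM in mutant fat body, and 0.763, 0.68 and 0.143 CPM in wild-type and 0, 0.0427 and 0 CPM in mutant brain. For sugar transporter A, fat body had 0, 0 and 0.118 CPM in wild type and 0.99, 1.27 and 1.09 CPM in the mutant. In brain it had 0.275, 0.4 and 0.765 CPM in wild type and 0, 0.0427 and 0.184 CPM in the mutant. Both are thus known from few reads, with differences of 7.35 (SE 1.12) and 7.03 (SE 1.31). Plasminogen (LOC5577756) had 0.642, 3.2 and 2.72 CPM in wild-type and 0.141, 0.274 and 0.242 CPM in mutant fat body. In brain plasminogen went from 0.0916, 0.04 and 0.143 CPM to 0.448, 0.214 and 0.459 CPM, and its difference of -5.24 (SE 0.96) combined estimates of -3.25 in fat body and 1.99 in brain.

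The 5 genes under 1 CPM in all groups were LOC5574262, LOC110678016, LOC110676605, larval cuticle protein LCP-17 (LOC5571167) and LOC110677107, and the first 3 had positive differences. In all, 26 of the 60 genes were uncharacterized (43.3%, against 25.8% of tested genes). Counts of 43 were not whole numbers in some library (71.7%, against 62.9%), which leaves their assignment uncertain, and 19 overlap a second annotated gene. For 15 of these it lies on the opposite strand, and the reads cannot be told apart here.

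Across 29 lists of genes, grouped by text patterns on their descriptions, no list had more than 2 called members, beside 0.467% of all tested genes. The lysosome and V-ATPase list held 2 of 70 (2.86%), the *VPS18* homolog, higher, and battenin, lower. Single members came from sugar transporters (1 of 35, 2.86%), other solute carriers (1 of 112, 0.89%), ABC transporters (1 of 50, 2.0%), fatty acid and triglyceride metabolism (1 of 160, 0.62%) and cuticle and chitin (1 of 73, 1.37%). With 1 or 2 genes each, these shares say little about the lists. The lists for insulin and TOR signalling, cytosolic ribosomal proteins, and yolk precursors and storage proteins had 0 called members of 28, 96 and 14 by edgeR. At an unadjusted p under 0.05 they had 0, 0 and 1, the last being the storage protein hexamerin-1.1 (LOC5578573). The chemosensory list, to which *Gr34* belongs, had 0 called of 71 and 2 at an unadjusted p under 0.05. Of these 2, gustatory receptor 2 (LOC5580083) is a taste receptor, while the carboxypeptidase KEX1 (LOC5564409) was matched only through the word pheromone in its description.

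At an unadjusted p under 0.05, reached by 9.03% of tested genes (5.3% positive and 3.73% negative), the 5 lists described next had the largest shares among the 29. Of 16 transposon-derived genes, 8 reached it, all with positive differences, and the list's median difference was 1.37 beside 0.04 over all tested genes. Of these 8, 7 were annotated as the nuclease HARBI1, and 6 of the 7 were called lower in mutant brain. The other gene, zinc finger BED domain-containing protein 1-like (LOC110676965), instead rose in fat body (adjusted p = 0.0163, edgeR quasi-likelihood test). It had 0, 0 and 0 CPM in wild-type and 83.6, 148 and 108 CPM in mutant fat body, and 0.359 CPM or less in every brain library. Over the whole list 9 of the 14 genes tested in brain were called lower, beside 4.26% of all genes tested there. In fat body 1 of the 9 tested, LOC110676965, was called higher and 2 lower, beside 0.234% of all genes called in either direction. HARBI1 gene LOC110678556 fell in both tissues, by log2 fold changes of -9.25 in brain and -8.45 in fat body (difference 0.66). So did the piggyBac-derived LOC110679851, at -3.88 and -4.01 (difference -0.1). A positive difference favours a lower brain effect, so the count among the 7 is no separate result. LOC5576377, for one, had a mean of 5.6 CPM in wild-type and 0.904 CPM in mutant brain, and 0.818 and 0.737 CPM in fat body, with a difference of 2.43 (adjusted p = 0.332, edgeR quasi-likelihood test). LOC110675515 and LOC110681454, also HARBI1, had equal means in wild-type brain, 2.2 CPM, so that such copies are not independent. Genes for neurotransmitter enzymes, transporters and receptors had 13 positive and 4 negative of 83, with a median difference of 0.32, and ion channels 9 and 2 of 62, with a median of 0.30. An example is the serotonin transporter (LOC5566685), which clears serotonin from synapses, with a difference of 1.84 (adjusted p = 0.165, edgeR quasi-likelihood test). It had 0.758, 1.67 and 1.38 CPM in wild-type and 2.48, 6.13 and 3.08 CPM in mutant fat body, against means of 71.8 and 61.5 CPM in brain. Mutant fat body replicate 2 was highest of its group here and in many other positive members, such as glutamate receptor 1 (LOC5569846; 2.12, 11.7 and 3.2 CPM). It was not highest in all, as for the synaptic vesicular amine transporter (LOC5577533, with 0.424, 0.308 and 0.363 CPM), and the part of this library was not tested. The neuron and glia markers had 10 positive and 2 negative of 80 (15.0%), with a median of 0.18. These markers took 0.166 to 0.257% of wild-type and 0.204 to 0.288% of mutant fat body counts, and their part in these values was not tested. Of 29 histone genes, 4 were positive and 2 negative (20.69%), with a median of 0.34, and the positive ones include a pair of H1 copies with near-identical means in each group (LOC5575530 and LOC110681469). A list of purine and urate enzymes had 2 positive and 5 negative of 18, with a median of -0.54. Its 7 members at that threshold include a pair annotated as tRNA-specific adenosine deaminase 2, which edits tRNA (LOC5579965, 0.94, and LOC110674240, -0.62), and uricase (LOC5573896, -2.36), which breaks urate down. Xanthine dehydrogenase 1 (LOC5573280), of an enzyme family that makes urate, had a difference of -4.74 (adjusted p = 0.169), which rests on few reads, with means of 0.157 and 0.035 CPM in wild-type and mutant fat body. The more abundant xanthine dehydrogenase LOC5575671, with means of 184 and 112 CPM there, had a difference of -1.33 (adjusted p = 0.552). None of these genes passed the test of the difference.

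The set of 60 depended on single libraries. It fell to between 10 and 18 genes when any brain library was left out, and to 14 without wild-type fat body replicate 2, 13 without mutant fat body replicate 3 and 36 without mutant fat body replicate 2. Without replicate 1 of wild-type or of mutant fat body, it was 83 and 79. Without wild-type fat body replicate 3 it was 57, of which 36 were among the 60. The sign of the difference stayed in all 60 genes in all 12 such fits. Genes called in every one of them were 9: the *VPS18* homolog, *Sur*, battenin, LOC110681507, monocarboxylate transporter 8, zinc finger protein 99, LOC110681508, LOC5579261 and LOC110680599. The other 51 lost the call in at least 1 fit, where their adjusted p reached 0.0512 to 0.182 and their unadjusted p at most 0.00142 by edgeR's quasi-likelihood test. Of the named genes among them, sodium/potassium/calcium exchanger 4, sax-3 and transmembrane and TPR repeat-containing protein 1 were called in 5 of the 12 fits. Torso, serine protease 53 and magnifin were called in 4, rdgC and CG4341 in 3, the helicase POLQ-like gene and DNTTIP1 in 2, and GEN, the gametocyte-specific factor 1 homolog and lozenge-like in 1. The uncharacterized gene LOC110677107, outside the rule for named genes, was called in none of the 12 fits. With voom and group quality weights, which let fat body vary more than brain, 7 of the 18 named genes kept the call: monocarboxylate transporter 8, sodium/potassium/calcium exchanger 4, *Sur*, battenin, zinc finger protein 99, the *VPS18* homolog and torso. The other 11 lost it, at adjusted p from 0.0642 (serine protease 53) to 0.448 (transmembrane and TPR repeat-containing protein 1), with 0.319 for CG4341, 0.292 for rdgC and 0.214 for sax-3.

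**Figure D5:**
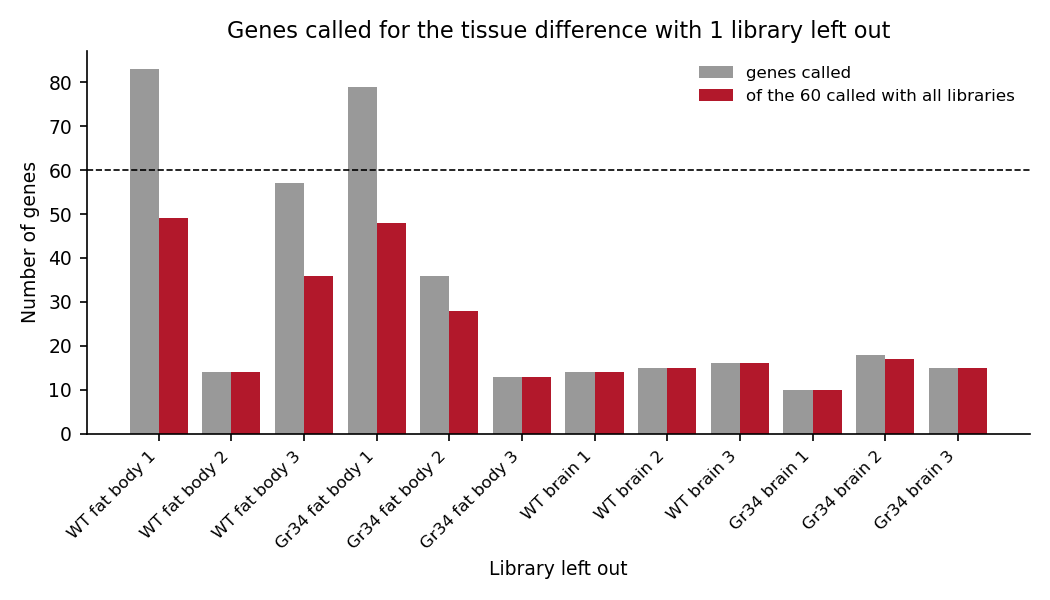
Number of genes called for the tissue difference when 1 library is left out (grey bars) and how many of them are among the 60 called with all 12 libraries (red bars, the 60 shown as a dashed line). Counts run from 10 without mutant brain replicate 1 to 83 without wild-type fat body replicate 1.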

How the data were processed

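RNA-seq was done on 12 libraries (brain and fat body of wild-type and mutant mosquitoes, 3 per group) from polyA RNA made into cDNA with random primers, per the labels' protocols. The submitters' processing notes name FastQC, STAR, featureCounts (Subread) and DESeq2, without versions; neither the build nor the handling of strand and multi-mapped reads is stated in them or in the labels. The authors deposited estimated counts per gene, of which 25.39% were not whole (tolerance 1e-06), and TPM values, from which only alternatives were computed. The deposited tables list 19256 genes; 18321 matched the RefSeq table of AaegL5.0, 18312 at identical coordinates, and positions refer to that assembly.

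Counts were rounded and fitted in R 4.3.3 with edgeR 4.0.16 (scaling by TMM, filterByExpr with a count of 10 and a total of 15, robust quasi-likelihood, two-sided F-tests, Benjamini-Hochberg adjustment, threshold 0.05). The difference between tissues came from 1 fit of 12 libraries, which share 1 estimate of spread per gene, and the effect in each tissue from a fit of its 6. "Called" means an adjusted p under 0.05. Standard errors are the log2 fold change over the root of F, and intervals are 95% intervals. CPM use TMM-scaled library sizes. A fold against a group at 0 uses 3 counts over the group; without molecular identifiers, such floors reflect counting error alone. The fit was also run on simulated data with known differences in well-counted genes only, which says nothing about genes with few reads.

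The genes, lists, markers and tests were chosen with earlier results of these data known, and 6 text patterns were corrected after the genes they matched were seen. Named genes were those called for the difference whose mean reached 5 CPM in a group, with a description other than uncharacterized: by p, the first 5 in each direction called in brain only and likewise in fat body only, the first 2 called in both, the first 2 called in neither and the first 2 measured (1 CPM) in each tissue only, 18 in all. The series design calls the libraries biological replicates, without naming animals, so p-values set each effect against the spread between libraries. Alternatives were DESeq2 1.42.0, limma 3.58.1 (voom with group quality weights; log2(TPM + 1) and log2(TPM + 0.1)), other scalings and filters, whole counts only, a replicate block, another quasi-likelihood method, a 2-fold minimum and each library left out. Added after seeing the data were the fits without replicate 1 of both fat body groups and without mutant fat body replicates 2 and 3.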

Additional observations from a re-analysis of the deposited data

Results flagged for a closer look

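The genotype effect differed between the tissues by the test of the difference itself in the 18 genes chosen by the naming rule, which is why each is listed here; their values per library are given above. Effects higher in fat body than in brain (log2 difference) were those of monocarboxylate transporter 8 (LOC5575506, 3.07), sodium/potassium/calcium exchanger 4 (LOC5565499, 2.97), rdgC (LOC5577768, 2.31), the helicase POLQ-like gene (LOC5575094, 3.47), flap endonuclease GEN (LOC5577344, 1.45), the VPS18 homolog (LOC5564402, 2.46), serine protease 53 (LOC5572144, 3.26), torso (LOC5574477, 3.12), sax-3 (LOC5565802, 3.43), the transmembrane and TPR repeat-containing protein CG4341 (LOC5568626, 1.58) and DNTTIP1 (LOC5566278, 4.2). Effects lower in fat body than in brain were those of Sur (LOC5577471, -4.74), battenin (LOC5572584, -3.48), zinc finger protein 99 (LOC5571247, -1.77), magnifin (LOC5568614, -3.14), the gametocyte-specific factor 1 homolog (LOC5571152, -5.67), transmembrane and TPR repeat-containing protein 1 (LOC5565213, -2.82) and lozenge-like (LOC110681435, -7.22).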

How the results depend on the processing

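The count of 60 genes became 270 with DESeq2 (all 60 among them), 28 with voom and group quality weights, which let fat body vary more than brain (20 of the 60), 39 with at least 1 CPM in 3 libraries of each tissue, 12 with whole counts only (17 of the 60 could be tested), 111 on log2(TPM + 1) (11 of the 60), 37 on log2(TPM + 0.1) (10 of the 60) and 17 with a 2-fold minimum. It was 0 by edgeR with library size alone, where 1038 genes had an unadjusted p under 0.05, and the cause was not tested. It was 183 without replicate 1 of both fat body groups (56 of the 60) and 45 without mutant fat body replicates 2 and 3 (13 of the 60). All 60 kept their sign in every setting in which they were tested. The 9 genes called with each library left out were also called with group quality weights, and 6 of them without mutant fat body replicates 2 and 3.

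Same-numbered libraries had correlations of their deviations from -0.223 to 0.321, so the numbers are not shown to pair samples. With a replicate block 18 genes were called for the difference, or 20 with a block within each tissue, 17 of the 60 in both, and the block gave 54 in fat body. With all 12 libraries in one fit, brain had 343 and fat body 362 called genes, and the classes became 10 called in brain only, 25 in fat body only, 4 in both with the same sign and 1 in neither.

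With each library left out in turn, genes called for the difference numbered 10 to 83, brain calls 405 to 979 and fat body calls 0 to 37. The fat body count of 0 came without wild-type replicate 2, mutant replicate 1 and mutant replicate 3, where 644, 987 and 664 genes had an unadjusted p under 0.05 in edgeR. The classes ran from 0 to 1 (opposite), 4 to 26 (brain only), 0 to 8 (fat body only), 0 to 4 (both, same sign), 2 to 32 (neither), 0 to 9 (measured in brain only), 0 to 11 (measured in fat body only) and 0 to 4 (measured in neither). Of 216 leave-one-out values of the named genes, 116 lost the call, as did 115 of 251 under the other settings, none with a changed sign. Fat body spread, and the few reads of genes under 1 CPM, limit what can be called.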
